A study of Mus musculus with 9 samples.

Results

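ChREBP, the carbohydrate response element binding protein, its relatives MondoA and Mlx, and 5 genes of glucose handling were followed in RNA of mouse pancreatic islets. The 8 genes were chosen by symbol, as Mlxipl, Mlxip, Mlx, Txnip, Arrdc4, Pklr, G6pc2 and Gpd1, and all 8 were found among the 46316 gene symbols of the count table. Each gene was represented by the transcript row with the highest total, out of 35 rows for the 8 genes, and all 8 passed the filter on low counts. The 9 libraries fall into 3 groups of 3: islets of db/db mice treated with imeglimin and metformin, islets of untreated db/db mice, and islets of untreated db/+ mice. Mice with the db mutation of the leptin receptor on both chromosomes become obese and diabetic, whereas db/+ mice carry 1 mutated copy and serve as the lean control. Metformin and imeglimin are oral drugs that lower blood glucose, and no group received either drug alone. The labels hold no dose, duration, age or number of animals. Nor do they say that libraries of a group came from separate mice, so the p-values speak only of the spread between libraries, part or all of which may be technical.

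ChREBP, encoded by Mlxipl, is a transcription factor that senses glucose metabolites. It enters the nucleus when glucose is high, binds DNA as a dimer with Mlx, and recognises the carbohydrate response element, a pair of E boxes 5 bases apart. MondoA, encoded by Mlxip, is its close relative and also pairs with Mlx. In beta cells, Txnip is among the genes that respond most strongly to glucose: its protein, an alpha-arrestin that binds thioredoxin and limits glucose uptake, promotes beta cell death when overproduced.

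The promoters of 4 of the genes are shown because they hold E boxes or related letters upstream of genes that moved in different ways. Each sequence runs from 250 bases before to 50 bases after a transcription start in the RefSeq annotation of GRCm38.p6, which is not the build of the count table, and capitals mark the matched letters. The windows are Txnip at chr3:96557707-96558006 (plus strand), Pklr at chr3:89136373-89136672 (plus strand), the upstream start of Mlxipl at chr5:135089640-135089939 (plus strand) and Arrdc4 at chr7:68749189-68749488 (minus strand).
Txnip: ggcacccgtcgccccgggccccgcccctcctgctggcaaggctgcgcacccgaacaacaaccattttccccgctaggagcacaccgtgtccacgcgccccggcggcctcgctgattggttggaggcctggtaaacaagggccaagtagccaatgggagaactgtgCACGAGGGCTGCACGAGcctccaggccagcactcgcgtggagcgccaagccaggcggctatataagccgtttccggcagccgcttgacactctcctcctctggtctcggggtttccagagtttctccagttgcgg
Pklr: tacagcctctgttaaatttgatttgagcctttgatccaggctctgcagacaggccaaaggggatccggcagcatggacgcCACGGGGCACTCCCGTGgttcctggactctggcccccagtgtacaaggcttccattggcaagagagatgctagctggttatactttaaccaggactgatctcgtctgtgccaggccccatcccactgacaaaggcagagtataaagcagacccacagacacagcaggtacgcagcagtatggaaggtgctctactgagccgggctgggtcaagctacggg
Mlxipl: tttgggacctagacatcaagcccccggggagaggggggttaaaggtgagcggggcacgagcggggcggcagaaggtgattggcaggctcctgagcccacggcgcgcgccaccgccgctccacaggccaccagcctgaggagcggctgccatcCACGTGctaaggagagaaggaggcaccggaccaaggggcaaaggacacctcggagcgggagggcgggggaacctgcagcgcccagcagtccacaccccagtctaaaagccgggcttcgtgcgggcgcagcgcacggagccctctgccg
Arrdc4: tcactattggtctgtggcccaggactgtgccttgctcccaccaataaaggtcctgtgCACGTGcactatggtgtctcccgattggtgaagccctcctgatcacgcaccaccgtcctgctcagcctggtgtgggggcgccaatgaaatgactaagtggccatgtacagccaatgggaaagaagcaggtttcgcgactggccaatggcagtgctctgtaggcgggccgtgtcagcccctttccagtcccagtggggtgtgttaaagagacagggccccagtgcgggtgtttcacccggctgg
RefSeq windows were at hand for 7 of the 8 genes, 10 windows in all, and were searched on both strands together with all 32851 windows of the table. The strict element, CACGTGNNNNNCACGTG, was in 0 of all windows. Its loose form, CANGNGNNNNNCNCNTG, was in 0.557% of all windows and, among the genes studied, in the Pklr window, from position -170 to -154 counted from the start site. The Txnip window held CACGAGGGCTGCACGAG from position -85 to -69. That layout, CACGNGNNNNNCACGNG, was chosen after the sequences had been seen and was in 0.0487% of all windows. The single E box, CACGTG, was in 7.15% of all windows, and in those of Mlxipl from -98 to -93, Arrdc4 from -193 to -188 and Mlx from -40 to -35. The other 5 windows, which were both of G6pc2, the first of Pklr, that of Mlxip and the downstream one of Mlxipl, held none of these letter patterns. A match describes letters and says nothing of binding in islets.

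Summed over genes, the libraries held between 10292664 and 15281806 counts. Beta cell markers were abundant in every library, as islet tissue should show: 10 markers summed to 233957, 209787 and 211126 CPM (counts scaled to a common library total) in treated db/db, 153174, 225773 and 234952 CPM in untreated db/db, and 448610, 340697 and 248051 CPM in db/+ libraries. This sum was lower in every db/db than in every db/+ library, but single markers differed. Ins1, Mafa, Pdx1, Slc2a2, Ucn3 and Slc30a8 were lower in all db/db libraries, Iapp and Pcsk1 were higher, and Ins2 and Nkx6-1 overlapped. Mafa was at 12.0 to 37.5 CPM in db/db and 508.8 to 555.1 CPM in db/+ libraries. Pcsk1 was at 279.9 to 470.5 CPM in db/db and 141.5 to 241.4 CPM in db/+ libraries. Acinar markers summed to 152.4, 307.5 and 91.7 CPM in treated db/db, 1827, 211.3 and 1021 CPM in untreated db/db, and 16.5, 6.32 and 104.6 CPM in db/+ libraries. Lymphocyte markers summed to 5.01, 6.41 and 3.36 CPM in treated db/db, 307.0, 46.7 and 31.7 CPM in untreated db/db, and 15.7, 10.9 and 13.6 CPM in db/+ libraries. Of 7 adipocyte markers, Plin1 and Cfd held no count in any library. Their sum was at 5.61 to 8.608 CPM in db/db and 8.638 to 23.4 CPM in db/+ libraries, which parted by a narrow margin. Sums of 4 further marker lists kept all db/db libraries apart from the db/+ ones. Delta cell markers were at 1814 to 3011 CPM in treated db/db, 2722 to 3835 CPM in untreated db/db and 4526 to 6903 CPM in db/+ libraries. Endothelial markers were at 290.1 to 306.3 CPM in treated db/db, 307.8 to 410.6 CPM in untreated db/db and 489.4 to 550.2 CPM in db/+ libraries. Of the delta cell markers, Sst and Rbp4 were lower in all db/db libraries and Hhex overlapped. Of the endothelial markers, Kdr, Tie1, Plvap and Egfl7 were lower in all db/db libraries, and Pecam1 and Cdh5 overlapped. Duct markers were at 676.4 to 949.5 CPM in treated db/db, 788.2 to 1488 CPM in untreated db/db and 424.4 to 532.4 CPM in db/+ libraries, and macrophage markers at 144.0 to 162.3 CPM in treated db/db, 157.9 to 199.6 CPM in untreated db/db and 125.7 to 130.9 CPM in db/+ libraries. The duct sums parted through Spp1 alone, at 271.7 to 1041 CPM in db/db and 82.5 to 113.7 CPM in db/+ libraries. Krt19, Krt7, Cftr and Sox9 overlapped. Macrophage markers went both ways: Adgre1, C1qa, C1qc and Lyz2 were higher in all db/db libraries, Cd68 and C1qb were lower, and Csf1r overlapped. Alpha cell, PP cell, stellate and erythroid sums overlapped between db/db and db/+ libraries. The part of these cells in the results was not tested, and in whole islets fewer cells of a type and less RNA per cell cannot be told apart.

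The db/+ libraries stood apart in how reads lay along transcripts. In 191 genes, a short transcript row shares the 5′ end of a long one and ends at least 2000 bases upstream, so the short row's share of the long row's counts measures 5′ reads. The median share was 49.9%, 48.7% and 51.2% in treated db/db, 46.6%, 46.8% and 46.0% in untreated db/db, and 24.3%, 21.1% and 23.3% in db/+ libraries. Untreated db/db libraries were all above the db/+ libraries in 163 of the 191 genes and all below them in 13. Treated db/db libraries were all above the untreated ones in 53 genes and all below in 2. Longer transcripts also had higher fold changes: the median log2 fold change of untreated db/db over db/+ was -0.17 in the 4193 tested genes with the shortest transcripts and 0.14 in the 4190 with the longest. Read coverage and genotype cannot be told apart here, and this touches every comparison with db/+ libraries below.

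**Figure D1:**
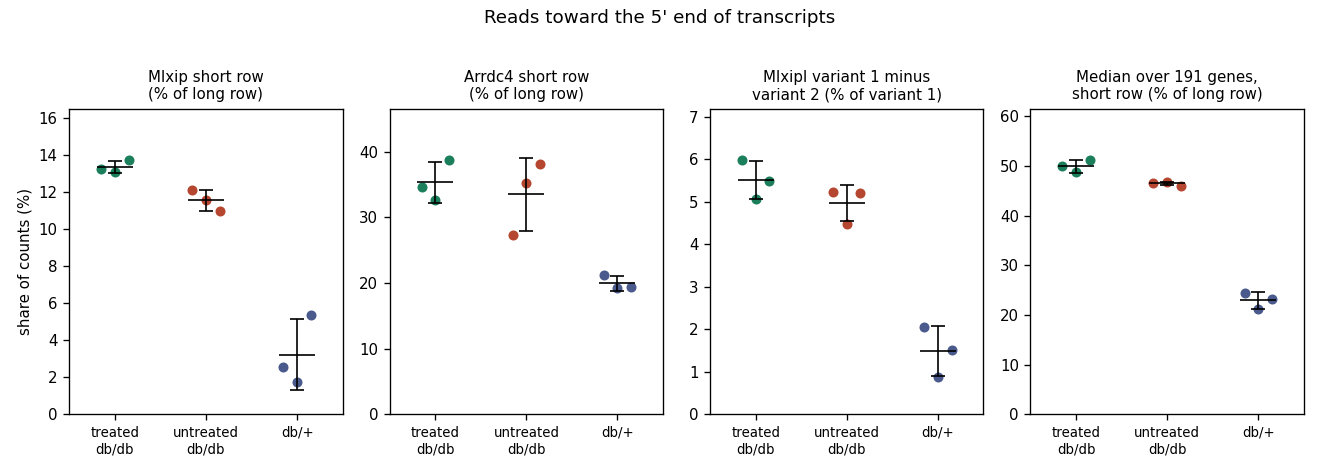
Share of counts (%, linear axis) that lay toward the 5′ end in each of the 9 libraries. It is shown for Mlxip, for Arrdc4 and as the median over 191 genes. The Mlxipl panel instead shows the net difference between rows that differ in their first exon, as a percent of the larger row. That net is not a share of 5′ reads. Points are libraries, wide ticks group means and bars SD (n = 3). In each panel the 3 db/+ libraries lie below all 6 db/db libraries.

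Among the transcription factors, Mlxipl was far lower in db/db islets of either kind than in db/+ islets, while Mlx was called in no comparison. Mlxipl had 353.3, 258.7 and 236.0 CPM in treated db/db, 232.2, 249.9 and 225.5 CPM in untreated db/db, and 635.1, 990.5 and 1004 CPM in db/+ libraries. All 6 db/db libraries lay below the lowest db/+ library, and treated and untreated libraries overlapped. In untreated db/db islets Mlxipl fell 3.72-fold against db/+, with a log2 fold change of -1.89 ± 0.19 (standard error; edgeR adjusted p = 6.00e-06). Of all 16761 genes tested, 4.23% had a lower log2 fold change. Treated db/db islets were 3.10-fold lower than db/+ islets (log2 fold change -1.63 ± 0.19, adjusted p = 1.44e-05). Between treated and untreated db/db islets the log2 fold change was 0.26 ± 0.19 (adjusted p = 0.489), with a 95% interval from -0.15 to 0.67.

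The 16 Mlxipl transcript rows gave one direction: the log2 ratio of mean CPM was between -1.94 and -1.44 for untreated db/db over db/+ libraries, and between 0.25 and 0.32 for treated over untreated db/db libraries. The rows share reads, and some hold identical counts, so their shared direction is not independent support. ChREBP is made in a long form that starts at exon 1a and a shorter, more active form that starts upstream at exon 1b, and the variant 1 and variant 2 rows differ in that first exon. The variant 1 row exceeded the variant 2 row by 267, 180 and 183 counts in treated db/db, 149, 158 and 148 counts in untreated db/db, and 117, 76 and 137 counts in db/+ libraries. This is a net of exon 1a over exon 1b reads, so the level of either form cannot be given. As a share of the variant 1 row it came to 5.98%, 5.07% and 5.49% in treated db/db, 5.22%, 4.48% and 5.21% in untreated db/db, and 2.05%, 0.883% and 1.52% in db/+ libraries, which were again lowest.

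Mlxip, which encodes MondoA, had 52.83, 50.03 and 51.75 CPM in treated db/db, 57.5, 52.4 and 56.4 CPM in untreated db/db, and 62.2, 59.2 and 59.1 CPM in db/+ libraries. The treated db/db libraries were all below the db/+ ones, by a log2 fold change of -0.22 ± 0.08 (adjusted p = 0.0273), a fall that passed the test in 10 of 18 settings with adjusted p-values from 0.00038 to 0.165. It did not pass with upper-quartile factors (-0.18, adjusted p = 0.0584), with no filter on low counts (-0.19, adjusted p = 0.165), with transcript rows summed (-0.16, adjusted p = 0.0939) or without db/+ replicate 1 (-0.19, adjusted p = 0.0597). It also failed without treated replicate 1, 2 or 3 (adjusted p = 0.0632, 0.121 and 0.085) or untreated replicate 3 (adjusted p = 0.054). For untreated db/db over db/+ islets the log2 fold change was -0.12 ± 0.08 (adjusted p = 0.212), which passed the test with transcript length offsets, added after the data had been seen (-0.26 ± 0.08, adjusted p = 0.0141), and for treated over untreated db/db islets it was -0.10 ± 0.08 (adjusted p = 0.523).

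The direction of Mlxip against db/+ depended on the stretch of transcript counted. A short row, variant 1, covers its 5′ stretch and held 99, 100 and 110 counts in treated db/db, 95, 96 and 87 counts in untreated db/db, and 16, 10 and 32 counts in db/+ libraries. In that row the log2 fold change was 1.72 ± 0.31 for untreated db/db over db/+ (adjusted p = 0.000324) and 1.83 ± 0.30 for treated db/db over db/+ (adjusted p = 0.000173). The rest of the long row gave -0.25 ± 0.08 (adjusted p = 0.0183) and -0.38 ± 0.08 (adjusted p = 0.00125) in the same comparisons. The short row took 13.2%, 13.1% and 13.7% of the long row in treated db/db, 12.1%, 11.6% and 10.98% in untreated db/db, and 2.55%, 1.72% and 5.38% in db/+ libraries. Both fits were added after the data had been seen.

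Mlx, the shared partner of ChREBP and MondoA, had 33.4, 32.0 and 32.8 CPM in treated db/db, 28.5, 30.1 and 29.8 CPM in untreated db/db, and 31.7, 32.1 and 31.2 CPM in db/+ libraries. The untreated db/db libraries were below all others, by small margins that did not pass the test. The log2 fold change was -0.10 ± 0.08 for untreated db/db over db/+ (adjusted p = 0.304), a sign that turned to 0.004 with upper-quartile factors. It was 0.15 ± 0.08 for treated over untreated db/db (adjusted p = 0.365; 95% interval from -0.03 to 0.33). A gene on the opposite strand, Psmc3ip, overlaps Mlx in the GRCm38 annotation and held 19 to 45 counts per library, against 314 to 508 for Mlx; the labels do not say whether counting used strand.

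**Figure D2:**
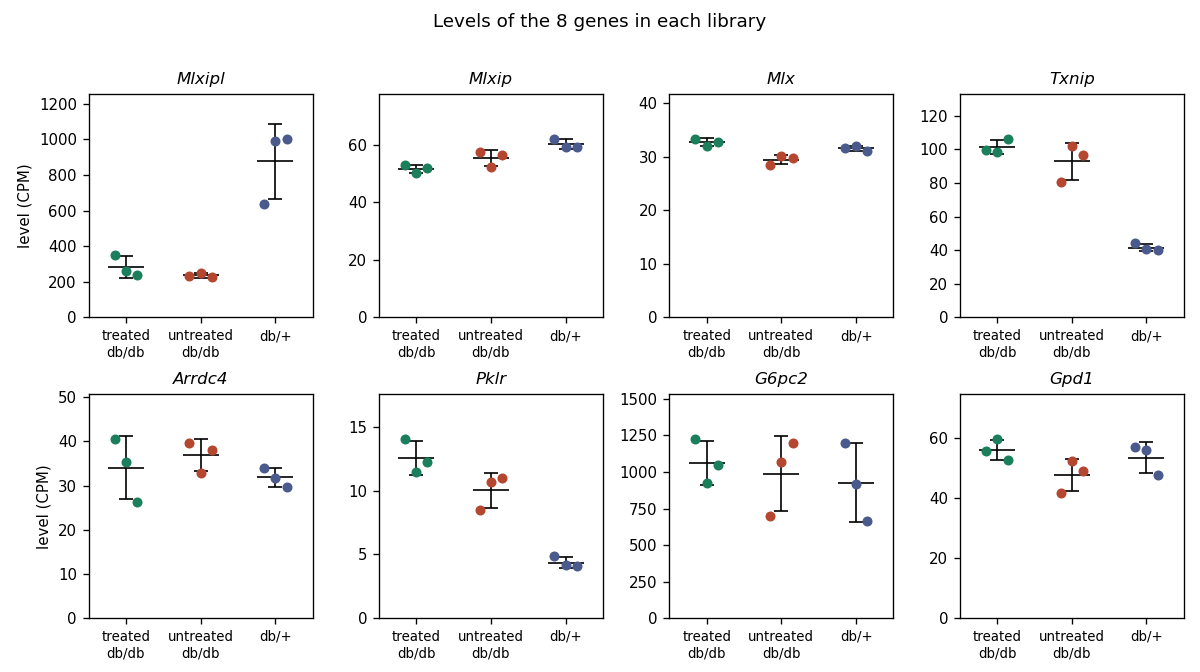
Level of each of the 8 genes (CPM, linear axes from 0) in the 9 libraries, with group means and SD (n = 3). Mlxipl is highest, and Txnip and Pklr are lowest, in the 3 db/+ libraries.

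Of the arrestins, Txnip was higher in db/db islets and Arrdc4 was not called. Txnip had 99.6, 98.6 and 106.5 CPM in treated db/db, 80.3, 101.8 and 96.4 CPM in untreated db/db, and 44.0, 40.5 and 40.0 CPM in db/+ libraries. Its counts were 1412, 1508 and 1651 in treated db/db, 1099, 1615 and 1355 in untreated db/db, and 445, 397 and 403 in db/+ libraries. Every db/db library was above every db/+ library, and treated and untreated libraries overlapped. Txnip rose 2.24-fold in untreated db/db against db/+ islets (log2 fold change 1.16 ± 0.10, adjusted p = 1.14e-06), higher than 87.3% of genes tested. In treated db/db against db/+ islets it rose 2.45-fold (log2 fold change 1.29 ± 0.10, adjusted p = 4.06e-07). Between treated and untreated db/db islets the log2 fold change was 0.13 ± 0.10 (adjusted p = 0.515), with a 95% interval from -0.08 to 0.34. Gm15441, antisense to Txnip, held 37, 33 and 38 counts in treated db/db, 18, 57 and 27 counts in untreated db/db, and 21, 32 and 21 counts in db/+ libraries, and its log2 fold change of untreated db/db over db/+ was -0.11 (adjusted p = 0.807).

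Arrdc4, a paralog of Txnip that also limits glucose uptake, had 40.5, 35.3 and 26.3 CPM in treated db/db, 39.6, 32.8 and 38.1 CPM in untreated db/db, and 34.1, 31.8 and 29.8 CPM in db/+ libraries. The 3 groups overlapped. The log2 fold change was 0.21 ± 0.14 for untreated db/db over db/+ (adjusted p = 0.22), -0.11 ± 0.14 for treated over untreated db/db (adjusted p = 0.694) and 0.09 ± 0.14 for treated db/db over db/+ (adjusted p = 0.581). With transcript rows summed, the first of these passed the test at 0.43 (adjusted p = 0.037). Reads that lie in more than 1 row count more than once in that sum.

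As with Mlxip, the 5′ stretch and the rest of Arrdc4 differed. Its short row, variant 2, held 199, 176 and 158 counts in treated db/db, 148, 183 and 204 counts in untreated db/db, and 73, 60 and 58 counts in db/+ libraries. Its log2 fold change was 0.95 ± 0.18 for untreated db/db over db/+ (adjusted p = 0.000495) and 0.90 ± 0.18 for treated db/db over db/+ (adjusted p = 0.000642). In the rest of the long row the values were -0.06 ± 0.17 (adjusted p = 0.786) and -0.21 ± 0.17 (adjusted p = 0.304). The short row's share of the long row was 34.7%, 32.6% and 38.7% in treated db/db, 27.3%, 35.2% and 38.1% in untreated db/db, and 21.2%, 19.2% and 19.3% in db/+ libraries. The 2 Txnip rows differ too little in length for such a split.

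Among the enzymes, Pklr was higher in db/db islets, and G6pc2 and Gpd1 were not called in any comparison. Pklr encodes liver and red cell pyruvate kinase, the last step of glycolysis, and is a classical ChREBP target. It had 14.0, 11.4 and 12.3 CPM in treated db/db, 8.48, 10.65 and 11.03 CPM in untreated db/db, and 4.85, 4.18 and 4.07 CPM in db/+ libraries. These rest on 175 to 199 counts in treated db/db, 116 to 169 in untreated db/db and 41 to 49 in db/+ libraries. The 3 groups did not overlap, with treated db/db on top. Pklr rose 2.30-fold in untreated db/db against db/+ islets (log2 fold change 1.202 ± 0.17, adjusted p = 5.23e-05) and 2.87-fold in treated db/db against db/+ islets (log2 fold change 1.52 ± 0.17, adjusted p = 5.70e-06). Between treated and untreated db/db islets the log2 fold change was 0.32 ± 0.15 (adjusted p = 0.305), with a 95% interval from -0.01 to 0.66. The rows of its liver and red cell forms held nearly equal counts, so the forms could not be separated. A gene on the opposite strand, Hcn3, overlaps Pklr in the GRCm38 annotation. Hcn3 held 238, 202 and 208 counts in treated db/db, 210, 237 and 197 counts in untreated db/db, and 365, 415 and 446 counts in db/+ libraries. Its direction was the other way round from Pklr, and the labels do not say whether counting used strand.

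G6pc2, the islet form of glucose-6-phosphatase, which releases glucose from glucose-6-phosphate, had 1224, 924.5 and 1045 CPM in treated db/db, 700.4, 1066 and 1200 CPM in untreated db/db, and 1201, 916.7 and 664.2 CPM in db/+ libraries. The spread within each group exceeded the differences between groups. The log2 fold change was 0.09 ± 0.24 for untreated db/db over db/+ (adjusted p = 0.752), 0.11 ± 0.24 for treated over untreated db/db (adjusted p = 0.838) and 0.20 ± 0.24 for treated db/db over db/+ (adjusted p = 0.485). The 95% intervals were wide, from -0.44 to 0.62 in the first and from -0.42 to 0.64 in the second.

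Gpd1, the cytosolic glycerol-3-phosphate dehydrogenase of the glycerol phosphate shuttle, had 55.8, 59.7 and 52.8 CPM in treated db/db, 41.9, 52.4 and 49.0 CPM in untreated db/db, and 57.0, 56.1 and 47.7 CPM in db/+ libraries. The treated libraries lay just above the untreated ones, by 0.23 ± 0.11 on the log2 scale (unadjusted p = 0.0494, adjusted p = 0.286). For untreated db/db over db/+ it was -0.17 ± 0.11 (adjusted p = 0.196), and for treated db/db over db/+ it was 0.07 ± 0.11 (adjusted p = 0.604).

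**Figure D3:**
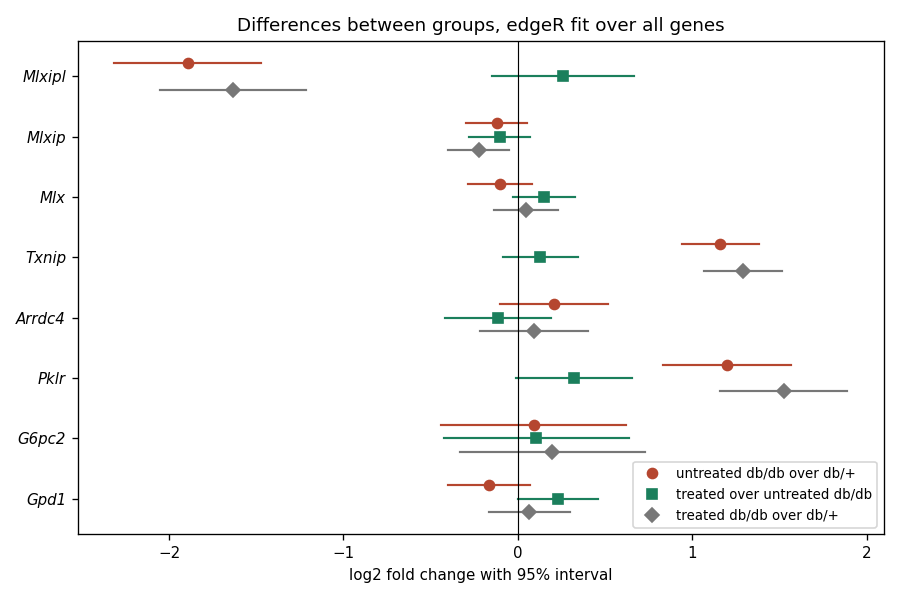
Log2 fold change of the 8 genes in the 3 comparisons, with 95% intervals from the edgeR fit over all genes. Txnip and Pklr lie right of 0 and Mlxipl left of 0 in both comparisons with db/+ islets, and the intervals for treated over untreated db/db islets include 0 or, for Gpd1, begin at it.

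Counted over the 8 genes, 2 rose and 1 fell in untreated db/db against db/+ islets, where 63.2% of all genes tested were called, 31.3% higher and 32.0% lower. Their libraries did not overlap in 5 of 8 genes, against 67.0% of all genes. In treated db/db against db/+ islets, 2 rose and 2 fell, where 65.2% of all genes were called, 32.8% higher and 32.5% lower, and 4 of 8 did not overlap, against 71.0% of all genes. In neither comparison was the share of the 8 genes called above that of all genes. Between treated and untreated db/db islets 0 of 8 were called by edgeR, DESeq2 or limma voom, 1 had an unadjusted p under 0.05, and 3 did not overlap (Mlx, Pklr and Gpd1, all higher with treatment), where 0.179% of all genes were called, 17.4% had such a p and 27.6% did not overlap. The median log2 fold change of the 8 genes was -0.01 for untreated db/db over db/+, 0.08 for treated db/db over db/+ and 0.14 for treated over untreated db/db. Over all genes the medians were 0.02, 0.02 and 0.07 in the same comparisons. Both comparisons with db/+ share its 3 libraries. Txnip, Pklr and Mlxipl passed against db/+ in all 18 settings for both db/db groups.

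Per length, G6pc2 stood first and Pklr last in every group, in mean CPM per kilobase of transcript (SD, n = 3). G6pc2 was at 515.2 ± 72.9 in treated db/db, 478.6 ± 125.1 in untreated db/db and 448.9 ± 130 in db/+ islets. Mlxipl came next, at 53.9 ± 11.9 in treated db/db, 45.0 ± 2.41 in untreated db/db and 167.2 ± 39.9 in db/+ islets. Txnip was the third in db/db islets, at 36.3 ± 1.54 in treated and 33.1 ± 3.98 in untreated ones. In db/+ islets, at 14.8 ± 0.788, it changed places with Gpd1. Gpd1 was at 20.1 ± 1.24 in treated db/db, 17.1 ± 1.92 in untreated db/db and 19.2 ± 1.84 in db/+ islets. Mlx followed at 13.3 ± 0.296 in treated db/db, 12.0 ± 0.347 in untreated db/db and 12.9 ± 0.19 in db/+ islets. Arrdc4 and Mlxip overlapped in treated db/db islets, at 8.72 ± 1.84 and 7.06 ± 0.194, and in db/+ islets, at 8.17 ± 0.546 and 8.24 ± 0.237. In untreated db/db islets they did not, at 9.44 ± 0.924 and 7.58 ± 0.367. Pklr was at 4.24 ± 0.447 in treated db/db, 3.39 ± 0.463 in untreated db/db and 1.47 ± 0.142 in db/+ islets. No other neighbours in these orders had overlapping libraries.

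The genes with the most similar profiles over the 9 libraries were found by the root mean square difference of centred log2 CPM. For Txnip they were Copb1 (0.053), Thnsl2 (0.0575) and Ap3b1 (0.0631), and for Mlxipl they were Clcn2 (0.091), Gm50594 (0.109) and Rrnad1 (0.112). For Arrdc4 they were Bag3 (0.0957), Klf10 (0.0994) and Gm12966 (0.106), and for G6pc2 Clec14a (0.1), Particl (0.128) and F8a (0.134).

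Beyond the 8 genes, 73 genes of the pathway were listed and 70 tested. Of these, 24 rose and 15 fell in untreated db/db against db/+ islets, or 55.7% against 63.2% of all genes, and 28 rose and 15 fell in treated db/db against db/+ islets, or 61.4% against 65.2%. Between treated and untreated db/db islets, edgeR called 0 and limma voom 0 of the 70, DESeq2 called 3 (4.29%, against 3.74% of all genes), and 16 had an unadjusted p under 0.05 (22.9%, against 17.4% of all genes). The lists were chosen with earlier results of these data known, so their counts describe and do not test. Counts given below for a list in untreated db/db against db/+ islets stand beside 31.3% of all genes higher and 32.0% lower.

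Other ChREBP targets went both ways; changes below are log2 fold changes of untreated db/db over db/+ unless another comparison is named. In sugar handling, 4 rose and 2 fell of 8 tested in untreated db/db against db/+ islets, with a median log2 fold change of 0.45. Ppp1r3b, which brings protein phosphatase 1 to glycogen, had 13.8, 14.5 and 15.9 CPM in treated db/db, 12.6, 9.39 and 10.4 CPM in untreated db/db, and 2.08, 1.53 and 1.99 CPM in db/+ libraries. It rose in untreated db/db islets by 2.52 ± 0.19 (adjusted p = 3.65e-07). Tkfc, the triokinase of fructose metabolism, rose by 0.75 (adjusted p = 0.000198), whereas Khk, the fructokinase before it, fell by 1.33 (adjusted p = 3.34e-06) on the log2 scale. Slc2a2, the glucose transporter GLUT2, fell by 1.60 (adjusted p = 0.00531). G6pc, the liver glucose-6-phosphatase, held 4 counts over the 9 libraries and was not tested.

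In lipogenesis 4 rose and 3 fell of 11, with a median log2 fold change of -0.09 for untreated db/db over db/+. Thrsp, a nuclear protein linked to lipogenesis, rose by 1.33 (adjusted p = 0.000173) and Me1, malic enzyme, by 0.63 (adjusted p = 0.000316). Tm6sf2, a protein of lipid export, fell by 1.85 (adjusted p = 1.34e-05) and Elovl6, a fatty acid elongase, by 0.77 (adjusted p = 2.46e-05). Scd1, the stearoyl-CoA desaturase, had 0.988, 1.504 and 2 CPM in treated db/db, 64.2, 6.49 and 6.40 CPM in untreated db/db, and 2.77, 2.04 and 1.69 CPM in db/+ libraries. Untreated replicate 1 stands far above the rest, and is also the library with the highest acinar and lymphocyte marker sums. Treated over untreated db/db gave -4.08 ± 1.13 (adjusted p = 0.164), and -2.09 (adjusted p = 0.00464) without that library.

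Of 8 transcriptional regulators and other targets, 2 rose and 1 fell in untreated db/db against db/+ islets. Rgs16, a regulator of G protein signalling, rose by 1.39 (adjusted p = 8.90e-06) and Nr1h4, the bile acid receptor FXR, by 1.55 (adjusted p = 2.40e-05). Tef, a circadian output factor, fell by 0.96 (adjusted p = 1.79e-05). Bhlhe40, a circadian repressor, stood at 0.87 ± 0.41 (adjusted p = 0.106).

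The arrestins and the thioredoxin system, which Txnip binds, also split. In untreated db/db against db/+ islets, Arrdc3 rose by 0.50 (adjusted p = 0.000534), and Arrdc1 and Arrdc2 fell by 0.89 (adjusted p = 5.74e-05) and 1.56 (adjusted p = 1.02e-05). Txn1, cytosolic thioredoxin, rose by 0.57 (adjusted p = 0.000153) and its reductase Txnrd1 by 0.55 (adjusted p = 0.000239). The mitochondrial reductase Txnrd2 fell by 0.81 (adjusted p = 0.000729). Mitochondrial Txn2 fell by 0.34 (adjusted p = 0.0249), a call that held in 8 of 18 settings. Txn1 had 55.2, 56.1 and 50.9 CPM in treated db/db and 71.1, 63.6 and 72.3 CPM in untreated db/db libraries, which did not overlap, but the log2 fold change of -0.35 ± 0.09 did not pass (adjusted p = 0.102). It passed in 2 of 18 settings, DESeq2 and no filter on low counts, with adjusted p-values from 0.0102 to 0.412 over the settings.

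Among genes related to the enzymes, 0 of 6 tested in the glucose-6-phosphate cycle rose in untreated db/db against db/+ islets. Of 3 tested relatives of Pklr and Gpd1, 1 rose and 1 fell. Slc37a4, the glucose-6-phosphate transporter, fell in untreated db/db islets by 0.42 (adjusted p = 0.0303), a call that held in 10 of 18 settings. Of the relatives of Pklr and Gpd1, Gpd1l rose by 0.70 (adjusted p = 0.000276) and Pkm, the main pyruvate kinase of most tissues, fell by 0.39 (adjusted p = 0.011). The Pkm call was lost without db/+ replicate 1 (-0.26, adjusted p = 0.0534) and with no filter on low counts (-0.28, adjusted p = 0.0762). Gpd2, the mitochondrial partner of Gpd1, had 0.07 ± 0.10 (adjusted p = 0.52).

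Among 15 genes that act on ChREBP protein, 7 rose and 2 fell in untreated db/db against db/+ islets, where 63.2% of all genes were called. Hcfc1, a host cell factor that works with O-GlcNAc transferase, rose by 0.92 (adjusted p = 1.00e-05), Prkaca, a catalytic subunit of protein kinase A, by 0.88 (adjusted p = 3.16e-05), and Ywhag, a 14-3-3 protein, by 0.75 (adjusted p = 6.00e-05). Oga, which removes O-GlcNAc, fell by 0.47 (adjusted p = 0.00025). In the wider Mondo and Max network, 3 of 10 other genes rose and 0 fell: Mxi1 by 0.80 (adjusted p = 0.000506), Mxd4 by 0.74 (adjusted p = 0.00069) and Mycn, at 1.42 ± 0.382 CPM in untreated db/db and 0.466 ± 0.147 CPM in db/+ islets, by 1.58 (adjusted p = 0.0036). Myc had 8.96, 12.0 and 7.29 CPM in treated db/db and 23.5, 14.2 and 17.8 CPM in untreated db/db libraries, with a log2 fold change of -0.97 ± 0.20 (adjusted p = 0.0711, between 0.00163 and 0.322 over 18 settings). Myc passed in 4 of 18 settings: DESeq2, no filter on low counts, without untreated replicate 2 and without treated replicate 2. Acinar and lymphocyte marker sums were also lower in treated libraries, apart from an overlap of the acinar sums, and their part in the Myc values was not tested.

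**Figure D4:**
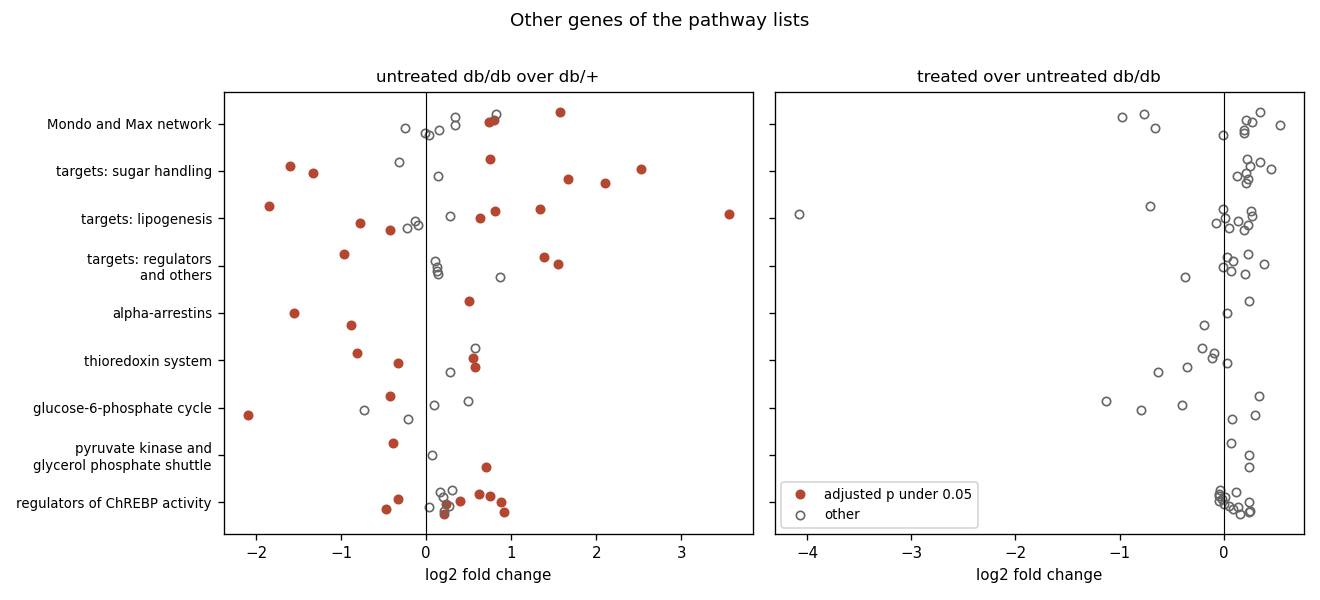
Log2 fold changes of the listed genes other than the 8, by pathway list, for untreated db/db over db/+ (left) and treated over untreated db/db islets (right). Filled points passed an adjusted p of 0.05. Filled points lie on both sides of 0 on the left, and there is none on the right.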

How the data were processed

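The authors deposited 1 table of raw counts, per the file headers, for 139023 RefSeq transcript rows with their lengths. The submitters' processing notes name cutadapt 1.9.1, HISAT2 2.2.1, featureCounts 2.0.0 and the genome build GRCm39. RNA was column-purified and the library kit keeps strand, per the labels' protocols. Whether counting used strand, and how multiply aligned reads were treated, is not given in the sources used here. Reads appear in every row they overlap, so 1 row per symbol was used. The alternative with transcript rows summed counts such reads more than once.

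The test was that of edgeR 4.0.16 under R 4.3.3: filterByExpr by group (16761 genes tested, 29555 not), TMM factors, robust quasi-likelihood F-test on 9 libraries with 3 group means, and Benjamini-Hochberg adjustment, called under 0.05. CPM are TMM-normalised. Standard errors are the log2 fold change over the root of F. Alternatives used DESeq2 1.42.0 and limma 3.58.1; tables and figures used Python 3.11.15, pandas 2.3.3, numpy 2.4.6 and matplotlib 3.10.9. The script was tested on simulated data. Within groups, libraries differed beyond counting noise (chi-square per degree of freedom 9.92 to 47.9), so none is a copy of another; this does not show that they came from separate mice.

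The 8 genes and the lists were chosen with earlier results of these data known. Text names all 8 and, per list and comparison, up to 4 other genes with the smallest p; 1 of these is not reported here. Of similar profiles it names 3 genes each for Txnip, Arrdc4, Mlxipl and G6pc2. Coverage along transcripts was measured for long rows with 100 counts or more in every library and a mean short-row share between 5% and 90%; which rows share an end was read from GENCODE M21 on GRCm38. The sequences are from RefSeq on GRCm38.p6.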

Additional observations from a re-analysis of the deposited data

How the results depend on the processing

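Of 423 fold changes of the 8 genes under alternatives, 393 kept their direction and their side of the threshold, 8 lost a call, all of Mlxip in treated db/db against db/+ islets, 5 gained one and 17 changed sign. Of 1002 for the other named genes that were called, 958 were kept and 44 lost the call. With treatment against untreated db/db islets, 30 genes were called. The number was 627 with DESeq2 (21.5% of them higher, against 3.33%), 10 with limma voom, 227 with no filter, 9 with transcript rows summed, 0 with only the 6 libraries compared, and 6 to 438 with 1 library left out: 13 and 12 without db/+ replicate 1 and 2, 154, 438 and 202 without untreated replicate 1, 2 and 3, and 7 and 6 without treated replicate 1 and 3. The cause was not tested. Upper-quartile factors shifted the median over all genes by 0.11 (log2) in untreated db/db over db/+.

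The signs that changed were of genes not called, except Mlxip against db/+. For untreated db/db over db/+, Mlx was 0.00427 with upper-quartile factors and 0.00487 with no filter, Mlxip 0.0109 with rows summed and 1.72 in its short row, Arrdc4 -0.0564 in its 3′ part, and G6pc2 ran from -0.062 to 0.407 with 1 library left out. For treated over untreated db/db, leaving out 1 library gave -0.0886 to 0.272 for G6pc2 and -0.253 to 0.0478 for Arrdc4, and Mlxip was 0.105 in its short row. For treated db/db over db/+, leaving out 1 library gave -0.0228 to 0.44 for G6pc2, -0.0408 to 0.126 for Gpd1 and -0.037 to 0.265 for Arrdc4. Arrdc4 was -0.0182 with length offsets and -0.206 in its 3′ part, and Mlxip 1.83 in its short row. Length offsets and transcript parts were chosen after seeing the data.

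Replicate numbers did not pair libraries: of 9 same-number pairs 0 had a correlation of deviations over 0.1 (-0.43 to 0.06). With the replicate number as a block, 10048 genes were called for untreated db/db over db/+, 116 for treated over untreated db/db and 10439 for treated db/db over db/+.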
